A study of Mus musculus with 6 samples.

Results

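Immediate early genes were followed by polyadenylated RNA sequencing of whole brain in 6 E16.5 embryos of C57BL/6 mice. The genes were 10 rows of the count table, picked by symbol alone (Fos, Fosb, Jun, Junb, Egr1, Egr2, Arc, Npas4, Ier2 and Nr4a1), out of 53801 genes in all. Bahd1-KO embryos (Bahd1-/-, n = 3) lacked BAHD1, a scaffold protein of repressive chromatin, and Bahd1-WT embryos (Bahd1+/+, n = 3) were wild type. All came from crosses of heterozygous Bahd1+/- parents, and the sources used here do not say which embryos were littermates. After caesarean section the fetuses were decapitated and their brains placed in RNA preservative, with the time taken for each not given in the sources used here. Since the tissue was sequenced in bulk, fewer expressing cells and less RNA per cell cannot be told apart. The p-values measure the spread between these embryos.

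Immediate early genes are transcribed within minutes of a stimulus, without new protein synthesis, from factors already present in the cell. CREB binds cyclic AMP response elements (CRE), and serum response factor binds CArG boxes in their promoters. In neurons, calcium entry at active synapses is a well-known trigger, and handling, wounding and tissue dissociation induce many of the same genes in other cells. The products are mostly transcription factors, which switch on a later wave of genes, and their transcripts are short-lived.

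The libraries held 61724000 to 91782802 counts. Bahd1 had 2 to 10 counts in the Bahd1-KO embryos and 1971 to 3470 in the wild type, as the labels say. Bahd1-KO replicate 3 stood apart and went against its tissue label. The ribosomal RNA genes Gm42418, mt-Rnr1 and mt-Rnr2 took 44.7% of its counts, against 0.249 to 0.614% elsewhere. In CPM (the count of a gene scaled to a library of 1e6 counts after correction with TMM factors, the level used throughout), Dcx, a marker of young neurons, stood at 33.0 CPM in this library and at 1865 to 3713 CPM in the other 5. The lung gene Sftpc had 44670 counts there and 0 to 225 elsewhere. The genotype differences of the 10 genes are therefore given with and without it.

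No immediate early gene passed the test for a genotype difference, and the spread between single embryos was wide. In 7 of the 10 genes Bahd1-KO replicate 3 was the highest embryo, among them Fosb, Arc, Egr1 and Fos, while its Npas4 was the lowest of all. With scaling to total counts Jun and Nr4a1, also among the 7, were no longer the highest there. After correction for GC content (described below) Junb and Ier2 were the highest there too. Among the other 5 embryos, the replicates numbered 1 of both genotypes held the lowest Ier2 and Junb. Levels of single genes reached from 0.166 CPM (Fosb in Bahd1-KO replicate 2) to 53.3 CPM (Jun in Bahd1-KO replicate 3), with 14 to 3395 counts behind each value.

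**Figure D1:**
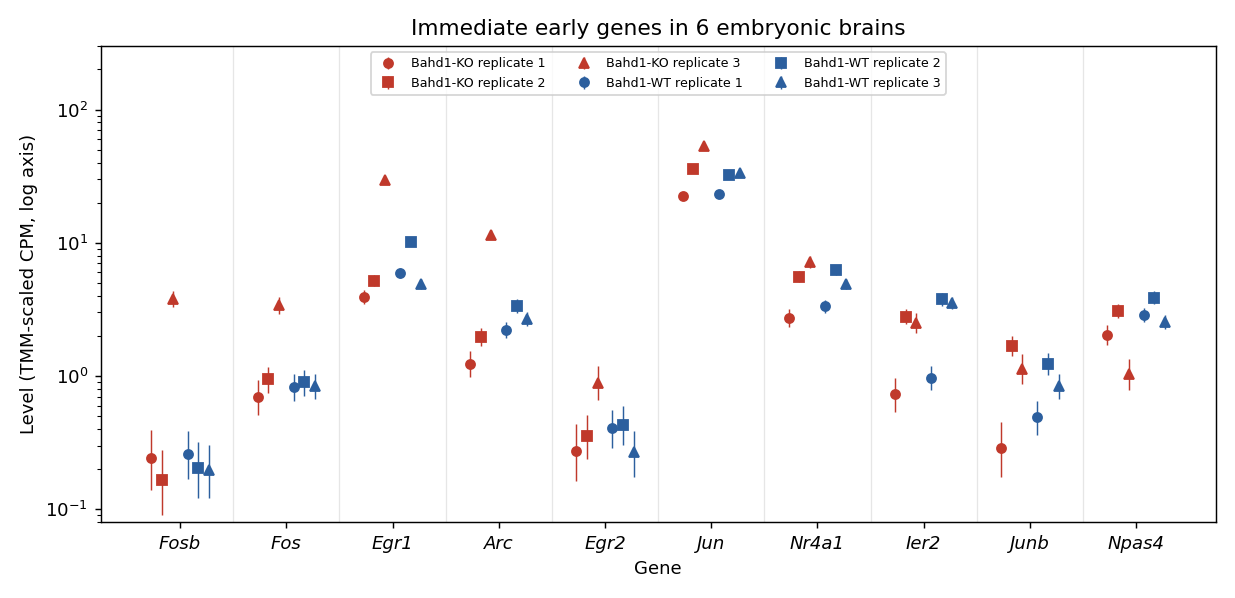
Level of each immediate early gene (TMM-scaled CPM, log axis) in the 3 Bahd1-KO (red) and 3 Bahd1-WT (blue) brains, with the marker shape giving the replicate number and bars the exact 95% Poisson interval, which covers counting error only. Bahd1-KO replicate 3 lies far above the other 5 for Fosb, Fos, Egr1 and Arc and below them for Npas4, whereas Ier2 and Junb are lowest in the replicates numbered 1.

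The FOS proteins pair with JUN proteins to form the transcription factor AP-1. Fos (chromosome 12, 85473890-85477273, plus strand, GRCm38) stood at 0.702, 0.947 and 3.39 CPM in the Bahd1-KO embryos and at 0.825, 0.896 and 0.842 CPM in the Bahd1-WT embryos, here and below in the order of their replicate numbers 1, 2 and 3. A single embryo was high, and the other 5 lay within 1.35-fold of each other, a narrower range than 78.7% of genes showed. The log2 fold change of Fos (Bahd1-KO against Bahd1-WT) was 0.97 ± 0.65 (SE, n = 3 and 3, edgeR adjusted p = 0.696) and -0.06 without Bahd1-KO replicate 3 (adjusted p = 0.988).

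Fosb (chromosome 7, 19302696-19310051, minus strand), the paralogue of Fos known for a long-lived splice form in stimulated neurons, showed the widest contrast. Its levels were 0.244, 0.166 and 3.82 CPM in the Bahd1-KO embryos and 0.261, 0.204 and 0.198 CPM in the Bahd1-WT embryos. Bahd1-KO replicate 3 thus lay 17.8-fold above the mean of the other 5, which rested on 14 to 25 counts each and whose Poisson intervals overlapped. The log2 fold change of Fosb was 2.66 ± 1.20 (SE, edgeR adjusted p = 0.696) over all embryos and -0.14 without this library (adjusted p = 0.981). Gene counts do not separate its splice forms.

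Jun (chromosome 4, 95049034-95052222, minus strand, a gene of 1 exon), the main partner of FOS, was the most abundant. Its levels were 22.3, 35.8 and 53.3 CPM in the Bahd1-KO embryos and 23.1, 32.5 and 33.6 CPM in the Bahd1-WT embryos. Bahd1-KO replicate 3 was again the highest, by 1.81-fold over the mean of the others, and both replicates numbered 1 were the lowest. With scaling to total counts Bahd1-KO replicate 2 was the highest instead, at 39.6 CPM against 36.4 CPM in Bahd1-KO replicate 3. The genotypes overlapped, with a log2 fold change of 0.32 ± 0.36 (SE, edgeR adjusted p = 0.767) that turned to -0.04 without Bahd1-KO replicate 3.

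Junb (chromosome 8, 84974484-84978718, minus strand), a JUN paralogue that often restrains JUN activity, followed another order. It stood at 0.290, 1.68 and 1.13 CPM in the Bahd1-KO embryos and at 0.491, 1.24 and 0.842 CPM in the Bahd1-WT embryos. Here Bahd1-KO replicate 2 was the highest, and Bahd1-KO replicate 3 lay inside the range of the others. After correction for GC content Bahd1-KO replicate 3 was instead the highest for Junb. Over the 5 embryos without Bahd1-KO replicate 3 the levels spanned 5.80-fold, and only 0.724% of genes spanned more. The genotype difference of Junb was 0.27 ± 0.69 on the log2 scale (SE, edgeR adjusted p = 0.895), and 0.22 without Bahd1-KO replicate 3. Prdx2 overlaps the 3′ end of Junb on the opposite strand, and counting was strand-specific.

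The EGR zinc-finger factors respond to growth factors and synaptic input. Egr1 stood at 3.91, 5.20 and 29.7 CPM in the Bahd1-KO embryos and at 5.95, 10.2 and 4.93 CPM in the Bahd1-WT embryos. Bahd1-KO replicate 3 was 4.91-fold above the mean of the other 5, among which Bahd1-WT replicate 2 was the highest. The log2 fold change of Egr1 was 0.88 ± 0.79 (SE, edgeR adjusted p = 0.717), and -0.63 ± 0.37 without Bahd1-KO replicate 3 (adjusted p = 0.981).

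Egr2 (chromosome 10, 67535475-67542188, plus strand), also known for its role in myelinating Schwann cells and hindbrain patterning, was low. Its levels were 0.275, 0.355 and 0.890 CPM in the Bahd1-KO embryos and 0.407, 0.431 and 0.267 CPM in the Bahd1-WT embryos. The same library was the highest, by 2.56-fold, and the others rested on 18 to 39 counts. Its log2 fold change was 0.45 ± 0.59 (SE, edgeR adjusted p = 0.797) and -0.23 without Bahd1-KO replicate 3.

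Arc (chromosome 15, 74669083-74672570, minus strand) is not a transcription factor but a synaptic protein that promotes the removal of AMPA receptors. Its levels were 1.24, 1.98 and 11.5 CPM in the Bahd1-KO embryos and 2.22, 3.36 and 2.67 CPM in the Bahd1-WT embryos. With Bahd1-KO replicate 3 set aside, the remaining Bahd1-KO embryos, both of them, were lower than every Bahd1-WT embryo. Arc was the 1 gene of the 10 whose genotypes then did not overlap, a separation also seen in 10.7% of all genes tested. Its log2 fold change was 0.83 ± 0.82 (SE, edgeR adjusted p = 0.736) over all embryos and -0.78 ± 0.34 without that library (adjusted p = 0.981).

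Npas4 (chromosome 19, 4984355-4990316, minus strand) encodes a bHLH-PAS factor which in neurons depends on calcium entry and is not induced by growth factors. Its levels were 2.05, 3.08 and 1.04 CPM in the Bahd1-KO embryos and 2.87, 3.88 and 2.56 CPM in the Bahd1-WT embryos. Bahd1-KO replicate 3 was the lowest embryo, at 0.359 times the mean of the others, which is the opposite of its place for Fosb, Fos, Egr1 and Arc. The log2 fold change of Npas4 was -0.59 ± 0.48 (SE, edgeR adjusted p = 0.701) and -0.28 without that library.

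Ier2 (chromosome 8, 84661331-84662852, minus strand, a gene of 1 exon) encodes a small nuclear protein induced by serum. It stood at 0.733, 2.78 and 2.50 CPM in the Bahd1-KO embryos and at 0.971, 3.77 and 3.54 CPM in the Bahd1-WT embryos. Replicate 1 of each genotype was well below the other 4 embryos, and over the 5 without Bahd1-KO replicate 3 the span of 5.14-fold was exceeded by 1.05% of genes. The genotype difference of Ier2 was -0.46 ± 0.69 on the log2 scale (SE, edgeR adjusted p = 0.822), -0.64 without Bahd1-KO replicate 3 and 0.27 after correction for GC content.

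Nr4a1 (chromosome 15, 101254269-101274795, plus strand) encodes an orphan nuclear receptor. Its levels were 2.73, 5.58 and 7.21 CPM in the Bahd1-KO embryos and 3.34, 6.27 and 4.94 CPM in the Bahd1-WT embryos. It combined both patterns, with Bahd1-KO replicate 3 the highest and both replicates numbered 1 the lowest. With scaling to total counts Bahd1-WT replicate 2 was the highest instead, at 6.78 CPM against 4.93 CPM in Bahd1-KO replicate 3. The log2 fold change of Nr4a1 was 0.09 ± 0.46 (SE, edgeR adjusted p = 0.949), -0.22 without Bahd1-KO replicate 3 and -0.17 with scaling to total counts.

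Levels of different genes were compared per kilobase of annotated exon. By the median over the 5 embryos other than Bahd1-KO replicate 3, the order was Jun, Ier2, Nr4a1, Egr1, Arc, Npas4, Junb, Fos, Egr2 and Fosb. Jun was at 10.2 CPM per kilobase and Fosb at 0.0327 CPM per kilobase. Among neighbours in this order, the ranges of the 5 embryos were apart only between Jun and Ier2, Fos and Egr2, and Egr2 and Fosb. Ier2 exceeded Nr4a1 in 3 of 5 embryos and Junb exceeded Fos in 3 of 5, so these places did not differ beyond the spread. In Bahd1-KO replicate 3 Fosb overtook Egr2, with 0.612 against 0.262 CPM per kilobase.

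**Figure D2:**
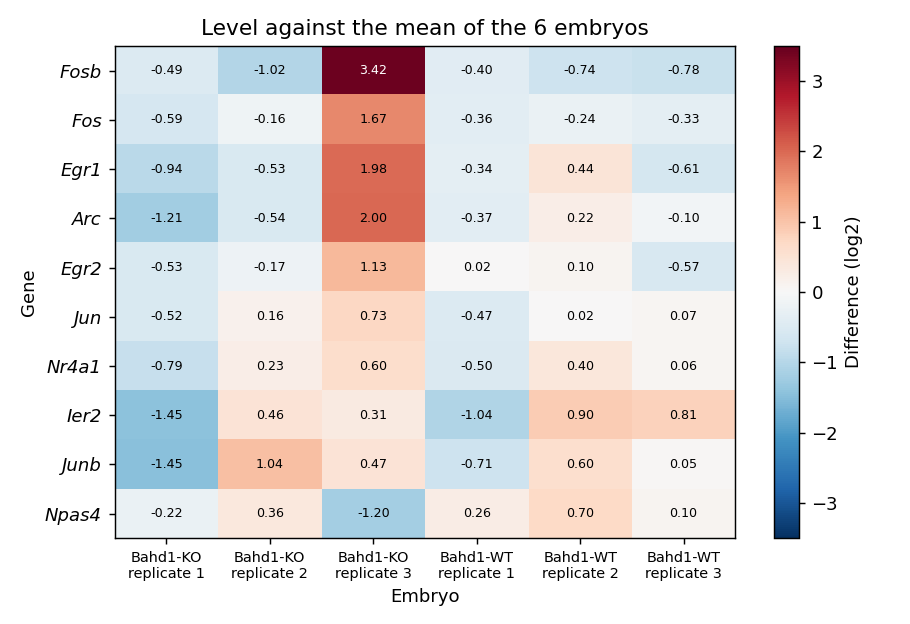
Log2 level of each gene (rows) in each embryo (columns) minus the mean of that gene over the 6 embryos, red for above and blue for below. Bahd1-KO replicate 3 reaches 3.42 for Fosb, 1.98 for Egr1 and 1.67 for Fos but -1.20 for Npas4, while the replicates numbered 1 are at -1.45 and -1.04 for Ier2.

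The genotype test was made on the whole table, in which 24739 genes had at least 10 counts in sum, all 10 immediate early genes among them. By the quasi-likelihood test of edgeR, 0 of the 10 passed an adjusted p of 0.05, against 0.00404% of all genes tested, and 0 of 10 passed an unadjusted p of 0.05, against 4.67%. The 1 gene past the adjusted threshold was Bahd1, the deleted gene, with a log2 fold change of -8.40 (edgeR adjusted p = 0.0462). Since so large a difference passed only narrowly, smaller differences could have been missed. DESeq2 also called 0 of the 10 (0.0323% of all genes), and gave no p for Fosb, which it withholds where a count is an outlier by Cook's distance. In 8 of 10 the fold change was above 0 (53.8% of all genes tested), and the median log2 fold change was 0.39, against 0.06 over all genes. With limma voom, which weighs embryos by quality, Fosb alone was above 0 and the median was -0.52. Without Bahd1-KO replicate 3, Junb was the 1 gene of 10 above 0 (49.2% of all genes), the median was -0.23 against -0.01, and edgeR again called 0 at the adjusted (0.0171% of all genes) and at the unadjusted threshold (1.48%). With all 6 embryos, 0 of 10 genes had genotypes that did not overlap (6.71% of all genes).

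**Figure D3:**
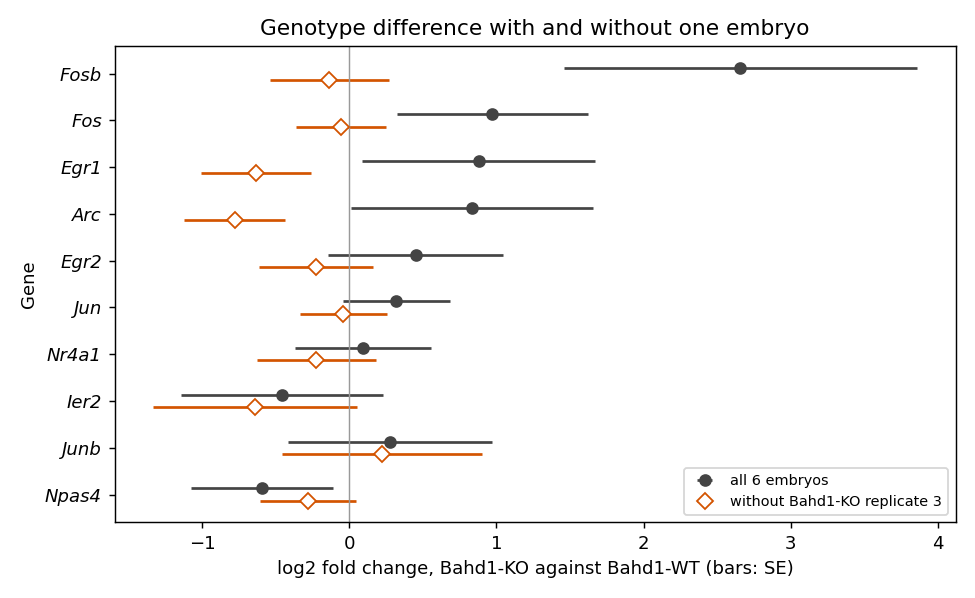
Log2 fold change of each gene (Bahd1-KO against Bahd1-WT, bars are SE) over all 6 embryos (filled) and without Bahd1-KO replicate 3 (open). Leaving out this library moves Fosb from 2.66 to -0.14, Egr1 from 0.88 to -0.63 and Arc from 0.83 to -0.78, and Junb changes least in position, from 0.27 to 0.22.

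The spread between embryos was measured as the highest minus the lowest log2 level of a gene. Its median was 2.30 for the 10 immediate early genes and 1.29 for the 16586 genes with at least 10 counts in every embryo. Without Bahd1-KO replicate 3 these medians were 1.06 and 0.70, and within the Bahd1-WT embryos 0.63 and 0.52. The highest place of Bahd1-KO replicate 3 in 7 of the 10 compares with 33% of all such genes, and its lowest place in 1 of the 10 with 42.3%. Bahd1-KO replicate 1 held the lowest level of 8 of the 10 among the other 5 embryos, against 34.9% of genes.

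A level per embryo, the median of the 10 genes after centring each on its mean, was 0.93 in Bahd1-KO replicate 3 on the log2 scale. It was -0.69 in replicate 1 and 0.00 in replicate 2 of the same genotype, and -0.38, 0.31 and -0.03 in the Bahd1-WT embryos. The replicates numbered 1 were the lowest on this scale, and the genotypes overlapped. The order depended on the scaling and the embryos included. After GC correction, Bahd1-WT replicate 3 was the lowest at -0.51, with -0.39 and -0.25 in the replicates numbered 1 of Bahd1-KO and Bahd1-WT. With scaling to total counts Bahd1-WT replicate 2 (0.42) stood next to Bahd1-KO replicate 3 (0.39). Without Bahd1-KO replicate 3, and with each gene centred on the other 5, both remaining Bahd1-KO embryos had levels of -0.51 and 0.15, against 0.00, 0.49 and 0.08 for the wild type, so that Bahd1-KO replicate 1 was low and Bahd1-WT replicate 1 lay close to Bahd1-WT replicate 3.

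The genes set apart in Bahd1-KO replicate 3 moved with markers of other tissues and ages in that library. All 9 genes of a mature-brain list, drawn up after its values were seen, were the highest there, with a summed level of 1012 CPM against 107 to 205 CPM. The myelin gene Mobp was at 302 CPM there and at 16.4 CPM in Bahd1-WT replicate 1, with 0.193 to 0.702 CPM in the other 4. Of 12 neuron markers 8 were the lowest and 2 the highest in this library, with a median log2 difference from the other 5 embryos of -1.73. Of 8 progenitor markers 5 were the lowest and 3 the highest, with a median difference of -1.42. The summed progenitor level was nonetheless highest there, at 1525 CPM against 881 to 1226 CPM. The corresponding differences were 8.51 for lung (6 of 6 genes the highest), 4.23 for muscle (8 of 8), 2.25 for cartilage and bone (5 of 8), 2.10 for skin (4 of 6), 1.37 for blood (4 of 8), 1.31 for endothelium (5 of 6), 1.25 for meninges (5 of 8) and 0.60 for microglia (6 of 9). The part of these cell types in the levels of Fosb, Fos, Egr1, Arc and Npas4 was not tested.

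The low levels in the replicates numbered 1 moved with the base composition of transcripts. Among the 5 embryos other than Bahd1-KO replicate 3, the mean of both replicates numbered 1 minus that of the other 3 had a median of 0.49 on the log2 scale over the genes with the lowest GC content (up to 43.4%), and of -0.82 over those with the highest (from 55.1%). These are the outer groups when the genes are ordered by GC content and cut into 5 groups of equal size. Junb (62.6% GC), Ier2 (60.9%), Arc (59.0%), Egr1 (57.3%), Nr4a1 (57.0%), Fosb (56.0%), Npas4 (55.6%) and Jun (55.5%) all belong to the highest group. The difference was -1.97 for Ier2, -1.65 for Junb and -0.88 for Nr4a1. For Fosb it was 0.40, the 1 positive value among the 10.

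Levels were then corrected for GC content in each embryo. The difference shrank to -0.92 for Ier2, -0.48 for Junb, -0.15 for Nr4a1 and 0.01 for Jun and Fos. It turned positive for Egr1 (0.36), Arc (0.26), Npas4 (0.23) and Egr2 (0.15), and grew for Fosb from 0.40 to 1.04. Before the correction both replicates numbered 1 lay below the other 3 embryos in 5 of 10 genes (Fos, Jun, Junb, Ier2 and Nr4a1), against 33.3% of all genes, and after it in Ier2 alone. The span over the 5 embryos went from 5.14-fold to 2.10-fold for Ier2 and from 5.80-fold to 2.17-fold for Junb, and widened from 1.58-fold to 2.32-fold for Fosb and from 1.61-fold to 1.72-fold for Egr2. In Bahd1-KO replicate 3 the corrected difference from the other 5 was 4.45 for Fosb (4.11 before), 3.03 for Arc (2.40) and 2.84 for Egr1 (2.37). It was 2.10 for Fos, little changed, and -1.12 for Npas4 (-1.44 before). It rose from 0.57 to 1.57 for Junb and from 0.37 to 1.21 for Ier2. For Egr2 it came to 1.44 (1.36 before), for Jun to 1.19 (0.88) and for Nr4a1 to 1.16 (0.72). Bahd1-KO replicate 3 was then the highest embryo for Junb and Ier2 as well. The corrected log2 range of Junb was 1.96 over all 6 embryos and 1.12 without this library. For Ier2 these ranges were 1.82 and 1.07.

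Blood markers were among several lists that were low in the replicates numbered 1. The summed level of 8 blood genes was 162 CPM in Bahd1-KO replicate 1 and 133 CPM in Bahd1-WT replicate 1, against 356 to 594 CPM in the other 4 embryos. The microglial list was at 74.4 and 80.7 CPM in these embryos and at 84.5 to 115 CPM in the others. Cartilage and bone stood at 46.3 and 44.0 CPM against 58.0 to 85.7 CPM, and meninges at 353 and 372 CPM against 451 to 2127 CPM. Endothelium was at 233 and 222 CPM against 235 to 745 CPM. The neuron list went the other way, at 9857 and 10000 CPM against 2316 to 8933 CPM. The part of these cell types in the levels of Ier2 and Junb was not tested.

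**Figure D4:**
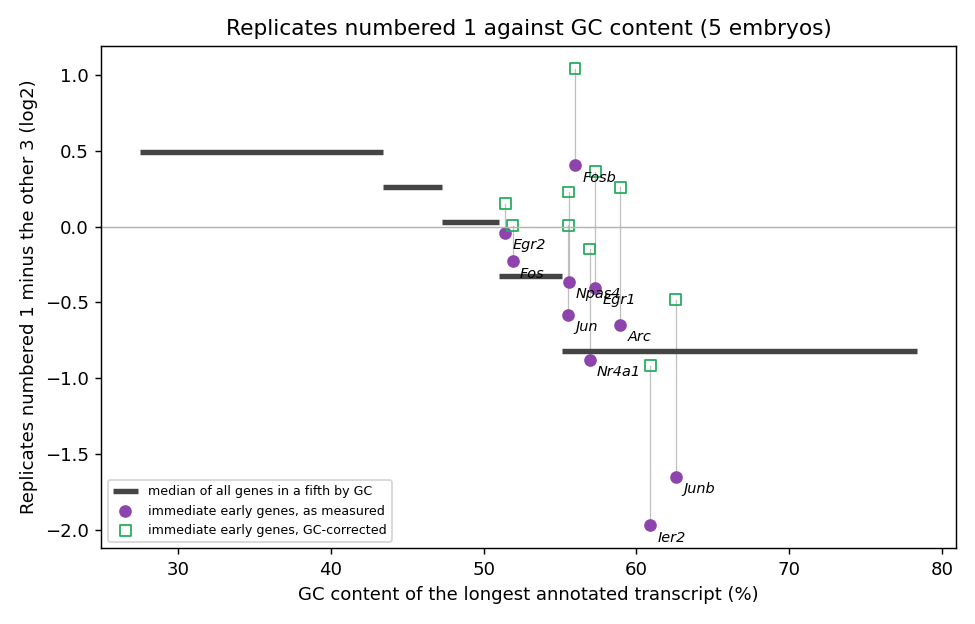
Mean log2 level of both replicates numbered 1 minus that of the other 3 embryos (Bahd1-KO replicate 3 left out) against the GC content of the longest annotated transcript (%), for the immediate early genes as measured (filled) and after GC correction (open, joined by a line). Bars give the median of all genes in each of 5 groups of equal size by GC content, from 0.49 at the lowest to -0.82 at the highest, and Ier2 at -1.97 and Junb at -1.65 lie below the last bar.

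Promoter windows of these genes were read from RefSeq (GRCm38.p6), which gave 250 bases before the start for 7 of the 10 genes. Arc and Ier2 had no window, and Egr1 was left out of the search. The CRE core TGACG, or CGTCA on the opposite strand, was found in windows of 6 of the 7 (Fos, Fosb, Junb, Egr2, Npas4 and Nr4a1) and in 17.8% of all 32851 windows of this length. The full CRE TGACGTCA, which contains the core, was in 0 of the 7 genes and in 1.55% of all windows. A CArG box was in windows of Egr2 alone and in 1.47% of all windows, and bases farther upstream were not searched. These percentages are per window, whereas a gene counted if any of its windows matched, which gave Egr2 more chances. Fos, Fosb, Egr2 and Nr4a1, highest in Bahd1-KO replicate 3, carry the core, Jun, also highest there, does not, and Npas4, lowest there, carries it. The sequences are shown 5′ to 3′ because this letter pattern is what the 6 genes share, with capitals for the CRE core and, in Egr2, also for the CArG box. Fosb is shown up to the annotated exon that covers its last 6 bases, and 30 bases around the matches are shown for Npas4, whose window overlaps an annotated exon, and for Egr2, which has several overlapping windows.
Fos, chr12:85473640-85473889, plus strand: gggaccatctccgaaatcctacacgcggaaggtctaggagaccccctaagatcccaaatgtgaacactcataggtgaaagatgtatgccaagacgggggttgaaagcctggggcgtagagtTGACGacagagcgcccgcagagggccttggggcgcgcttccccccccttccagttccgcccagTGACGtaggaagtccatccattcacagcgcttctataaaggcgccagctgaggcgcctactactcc
Fosb, chr7:19310052-19310295, minus strand: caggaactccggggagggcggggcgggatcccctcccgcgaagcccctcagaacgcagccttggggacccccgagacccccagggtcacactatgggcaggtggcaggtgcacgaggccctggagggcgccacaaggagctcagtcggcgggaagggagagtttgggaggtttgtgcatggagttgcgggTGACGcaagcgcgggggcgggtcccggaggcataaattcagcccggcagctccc
Junb, chr8:84978749-84978998, minus strand: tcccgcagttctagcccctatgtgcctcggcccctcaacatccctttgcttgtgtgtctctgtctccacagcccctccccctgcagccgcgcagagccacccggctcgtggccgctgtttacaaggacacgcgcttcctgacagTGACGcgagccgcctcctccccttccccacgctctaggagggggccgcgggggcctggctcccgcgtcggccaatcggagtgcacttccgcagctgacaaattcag
Nr4a1, chr15:101266596-101266845, plus strand: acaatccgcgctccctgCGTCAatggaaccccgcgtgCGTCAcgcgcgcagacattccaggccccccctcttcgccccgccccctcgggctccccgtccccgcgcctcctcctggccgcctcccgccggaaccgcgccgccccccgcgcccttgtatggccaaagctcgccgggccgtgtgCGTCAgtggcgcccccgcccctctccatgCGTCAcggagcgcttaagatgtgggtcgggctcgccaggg
Egr2, chr10:67537792-67537821, plus strand: tcagtCCATATATGGgcagcgaCGTCAcgg
Npas4, chr19:4990129-4990158, minus strand: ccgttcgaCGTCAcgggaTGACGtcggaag
The Fos core lies 66 and 129 bases before the start, and a TATA box (TATAAA, in 7.59% of all windows) begins 33 bases before it. Fosb holds 1 core 60 bases before its start, Junb 1 at 106 bases, and Nr4a1 4, the nearest at 40 bases. A match is a description of these letters and no measurement of binding.

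The closest relatives of these genes fell on both sides. Of 12 paralogues 11 were tested with edgeR, 6 were above 0 (7 without Bahd1-KO replicate 3) and 0 passed either threshold. For these and the lists below, 53.8% of all genes tested were above 0 (49.2% without Bahd1-KO replicate 3). Over all 6 embryos 0.00404% of genes tested passed the adjusted and 4.67% the unadjusted threshold. Egr3, a paralogue of Egr1 that active neurons induce, stood at 32.4 CPM in Bahd1-KO replicate 3 and at 3.86 to 6.68 CPM elsewhere. Maff, a small MAF factor, was at 20.7 CPM there and at 2.33 to 4.36 CPM elsewhere. Jund, the constitutive JUN paralogue, was instead the lowest there at 12.9 CPM, against 17.5 to 36.3 CPM, and Ier5l was at 2.69 CPM against 3.40 to 5.42 CPM.

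Of 34 genes of the feedback and delayed-early response, which encode phosphatases, mRNA-decay factors and growth regulators, 0 passed either threshold and 25 were above 0 (17 without Bahd1-KO replicate 3). In 24 of the 34, Bahd1-KO replicate 3 was the highest embryo, against 33% of the genes with at least 10 counts in every embryo. Zfp36l1, an mRNA-decay factor, was at 258 CPM there against 48.6 to 55.8 CPM, and the matricellular gene Ctgf at 55.1 CPM against 8.78 to 11.4 CPM. Myc was the lowest there, at 7.06 CPM against 18.4 to 30.8 CPM. Gadd45g, a growth-arrest gene, resembled Ier2, with 1.60 and 2.06 CPM in the replicates numbered 1 and 3.97 to 9.85 CPM in the other 4.

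Of 15 activity-induced effector genes of neurons 11 were above 0, also without Bahd1-KO replicate 3, and Bahd1-KO replicate 3 was the highest in 5. Of the 15, 1 passed the unadjusted threshold by edgeR, against 4.67% of all genes, and 0 the adjusted one. It was Ptgs2 (cyclooxygenase), named after its values were seen, with a log2 fold change of 3.28 (edgeR adjusted p = 0.696) and of 0.92 without Bahd1-KO replicate 3 (adjusted p = 0.981). Ptgs2 stood at 5.67 CPM in Bahd1-KO replicate 3 and at 0.125 to 0.427 CPM elsewhere. Rasgrp1 reached 134 CPM there against 13.8 to 28.3 CPM and Pcsk1 28.0 CPM against 5.71 to 10.9 CPM. Plk3 was lower there, at 2.04 CPM against 5.48 to 12.5 CPM, and Nptx2 was at 5.26 CPM against 4.69 to 8.69 CPM.

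Among 25 genes of the kinases, coactivators and factors that carry the signal to these promoters, 12 were above 0 (8 without Bahd1-KO replicate 3) and 0 passed either threshold. Camk2a, a calcium-dependent kinase of mature synapses, was at 325 CPM in Bahd1-KO replicate 3 against 47.7 to 80.5 CPM, and Elk3 at 64.1 CPM against 14.7 to 18.4 CPM. Arnt2, the dimer partner of NPAS4, was the lowest there like Npas4 itself, at 71.6 CPM against 320 to 426 CPM. Crtc1, a coactivator of CREB, was at 21.7 CPM against 39.3 to 115 CPM.

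Stress programmes were listed as well. Of 14 heat-shock genes 8 were above 0 (9 without Bahd1-KO replicate 3), and their median difference between Bahd1-KO replicate 3 and the other 5 was -0.37 on the log2 scale. The cochaperone Bag3 was at 25.0 CPM in that library against 2.85 to 4.51 CPM, and Dnajb4 at 102 CPM against 41.1 to 68.6 CPM. Hspa8 was lower there, at 579 CPM against 789 to 1047 CPM, and the regulator Hsf1 was at 10.4 CPM against 11.7 to 27.3 CPM. Of 15 hypoxia genes 9 were above 0 (5 without that library) with a median difference of 0.68, with Egln3 at 49.6 CPM against 14.2 to 19.0 CPM and Bhlhe40 at 39.8 CPM against 10.7 to 12.9 CPM, while Pfkfb3 was lower at 44.0 CPM against 88.5 to 109 CPM and Slc2a1, at 40.4 CPM, lay inside the range of the others.

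The glucocorticoid list shifted more in Bahd1-KO replicate 3 than the paralogue, feedback, effector, transducer, heat-shock and hypoxia lists. Of 8 genes 7 were above 0 (5 without that library), 7 were the highest in Bahd1-KO replicate 3, and the median difference was 2.09. The receptor gene Nr3c1 was at 230 CPM there against 18.9 to 31.4 CPM, and Hif3a at 243 CPM against 20.0 to 32.2 CPM. The receptor's targets Tsc22d3 and Fkbp5 were closer, with 83.9 CPM against 37.9 to 47.0 CPM and 68.7 CPM against 56.4 to 76.3 CPM. By edgeR, 0 genes of the heat-shock, hypoxia and glucocorticoid lists passed the adjusted or the unadjusted threshold, against 4.67% of all genes for the latter.

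Genes outside these lists were ranked by how closely their centred log2 levels over the 6 embryos, Bahd1-KO replicate 3 included, followed the median of the 10 immediate early genes, by root mean square difference among 12642 genes. The nearest were Nfic (0.0734), Fam102a (0.0857), Plcb3 (0.0974), Baiap2 (0.100) and Spsb1 (0.101). Nfic, a nuclear factor I gene, was at 18.7, 30.1 and 57.1 CPM in the Bahd1-KO embryos and at 21.7, 41.3 and 29.5 CPM in the Bahd1-WT embryos. Of the 10 genes themselves, Jun (0.180) and Nr4a1 (0.184) were nearest to their own median and Fosb (1.22) and Npas4 (0.954) were farthest.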

How the data were processed

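RNA-seq of whole brain from 3 Bahd1-KO and 3 Bahd1-WT embryos was used, grouped by the sample titles. Values in the deposited table were raw counts of reads over each gene, with no normalization. The authors built stranded poly(A) libraries and, per the submitters' processing notes and methods, used cutadapt 1.11, STAR 2.5.0a, the GRCm38 assembly and strand-specific featureCounts 1.4.6-p3. How technical runs were joined is not stated. TopHat2 and a paired-end run are also named in the supplement. Dissection order and times are not given in the sources used here. A gene entered the test from 10 counts summed over embryos, and tests were made with the edgeR 4.0.16 quasi-likelihood test (R 4.3.3, TMM factors, genotype as the single term, two-sided, Benjamini-Hochberg over all genes, threshold 0.05). DESeq2 1.42.0 and limma 3.58.1 were alternatives. The code was tested on simulated data. Levels are TMM-scaled CPM, and log2 levels used a pseudocount of 0.01 CPM. Exon lengths, positions and GC content came from GENCODE M21, and GC correction used lowess (span 0.3). It was chosen after seeing the data, as was the mature-brain list.

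The members and lists were chosen with earlier results of these data known. Named genes were the 10 members, Bahd1, per list the 2 largest and 2 smallest fold changes among genes with at least 100 counts in every embryo, any gene past the adjusted threshold, and the 5 genes most like the members. Ptgs2, the marker genes named and Zbtb16, Pdk4, Errfi1 and Sgk1 were chosen after their values were seen. Depth was 61724000 to 91782802 counts per library, and Poisson intervals (exact, 95%) cover counting error only. Alternatives covered low-count filters, scaling factors, tests, Gm42418 and mitochondrial genes left out, the replicate block, GC correction and each embryo left out in turn.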

Additional observations from a re-analysis of the deposited data

How the results depend on the processing

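No immediate early gene was called under any setting, the lowest adjusted p being 0.235 for Fosb without Bahd1-KO replicate 2. Over the whole table edgeR called 1 gene, which was Bahd1. It called 0 with at least 10 counts in every embryo, a filter that Bahd1 does not pass. With Gm42418 and mitochondrial genes left out or with the replicate block it also called 0. DESeq2 called 8 and limma voom with quality weights 6, and leaving out single embryos gave 0 to 4, with 4 without Bahd1-KO replicate 3. With voom the median log2 fold change of the 10 genes was -0.52 and the signs turned for Fos (-0.024), Jun (-0.16), Junb (-0.65), Egr1 (-0.68), Egr2 (-0.20), Arc (-0.84) and Nr4a1 (-0.51). Voom weighs embryos by quality. Total-count scaling turned Nr4a1 (-0.17) and brought the median of the 10 genes from 0.39 to 0.10. GC correction turned Ier2 (0.27) and raised the median to 0.80, Junb from 0.27 to 0.94 and Arc from 0.83 to 1.55. The cause was not tested. Leaving out single embryos gave ranges of -0.056 to 1.34 for Fos, -0.14 to 3.16 for Fosb, -0.040 to 0.58 for Jun, -0.31 to 0.72 for Junb, -0.63 to 1.31 for Egr1, -0.23 to 0.75 for Egr2, -0.78 to 1.30 for Arc and -0.22 to 0.40 for Nr4a1. The lowest value came without Bahd1-KO replicate 3 for all of these but Junb, whose lowest came without Bahd1-KO replicate 2. The median spread was 2.30, and 1.10 without Bahd1-KO replicate 3 when TMM factors were estimated again on the other 5 (1.06 with the factors of all 6), 1.92 to 2.32 without any other embryo, and 0.78 with GC correction and without Bahd1-KO replicate 3. Deviations of same-numbered embryos correlated at 0.285, 0.315 and -0.133, and those of the other pairs across genotypes at -0.519 to 0.402. These values do not settle whether replicate numbers pair the samples. The replicate block changed no call among the 10 genes, with the median at 0.17, Fosb at 1.15, Egr1 at 0.23 and Arc at 0.10. DESeq2 withheld its p for Fosb, and Fosb, Egr2 and Junb rested on few counts.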
